A study of Mus musculus with 4 samples.

Results

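The gene for the tumour suppressor p53 (Trp53), its regulators Mdm2 and Mdm4, and 7 p53 target genes (Bax, Bbc3, Pmaip1, Ccng1, Sesn2, Phlda3 and Zmat3) were followed in RNA from mouse liver tumours. Members were taken by symbol, and all 10 were found among the 55487 genes of the count table. The series asked how Tfrc, the gene of transferrin receptor 1, acts on the tumour and its surroundings. Libraries for mRNA sequencing were made from bulk hepatocellular carcinoma of 4 mice, 2 labelled wild type (WT1 and WT2) and 2 labelled Tfrc knockout (KO1 and KO2). The series places the work in Alb-cre H11-myc mice, whose liver tumours arise spontaneously under c-Myc. The albumin promoter is used to drive Cre in hepatocytes, and the bulk tissue also holds other cells, so Tfrc was not measured by cell type. The labels give no age, no deleted exons, and no separate Cre status for the wild type mice. Each library was taken to be 1 mouse, as the series' design text gives 2 animals per genotype.

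p53 is a transcription factor that is activated by DNA damage, oncogenes and other stress. MDM2 binds p53 and marks it for degradation, and its partner MDM4 masks the activation domain of p53. Because p53 itself switches Mdm2 on, the pair forms a negative feedback loop. Activity of p53 is set largely on the protein, so the Trp53 transcript alone does not report it, and target transcripts are commonly read beside it. Some targets promote mitochondrial cell death (Bax, Bbc3, Pmaip1), and others act in cell cycle arrest, nutrient sensing and signalling. In the liver, loss of p53 is a frequent step towards carcinoma, and oncogenic Myc is a known inducer of p53 through ARF, a product of Cdkn2a.

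Promoter sequences are shown because the targets are defined by p53 binding. RefSeq windows (GRCm38.p6, which shares mm10 coordinates, 250 bases before to 50 after each start) matched 8 of the 10 members, with 11 windows. They were searched for the p53 decamer, the 10-base consensus, which reads the same on both strands. They were also searched for a 20-base pair of decamers with up to 13 bases between them, intact central tetramers and at most 3 mismatches. Of all 32851 windows, 8.4% held a decamer and 6.7% a pair. Among the member windows 4 of 11 held a decamer and 4 of 11 a pair. Of the 8 member genes 6 had either, against 14.3% of the 27025 genes with a window. Among 26 other p53 target genes with a window, 53.8% had either. The members were chosen for their known link to p53, so their excess over all genes is no independent result. The pair search includes imperfect decamers, so a window can be counted in both. Sequences read 5′ to 3′ on the strand of the gene, with the matched decamers in capitals and with up to 30 bases on each side where no annotated exon lies. Where a window held a pair, only 1 pair with the fewest mismatches was put in capitals.
Trp53, chr11:69580256-69580323 (+), a pair with 3 mismatches: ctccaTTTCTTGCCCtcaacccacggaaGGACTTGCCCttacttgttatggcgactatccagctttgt
Mdm2, chr10:117710905-117710974 (-), 1 decamer: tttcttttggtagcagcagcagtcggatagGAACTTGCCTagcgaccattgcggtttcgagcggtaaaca
Mdm4, chr1:133025596-133025666 (-), a pair with 3 mismatches before an alternative start inside the gene's span: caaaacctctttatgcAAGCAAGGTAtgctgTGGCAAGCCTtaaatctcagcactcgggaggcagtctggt
Bax, chr7:45467060-45467144 (-), a pair with 2 mismatches: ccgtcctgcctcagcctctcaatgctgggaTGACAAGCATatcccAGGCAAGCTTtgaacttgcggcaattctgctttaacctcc
Bbc3, chr7:16309456-16309535 (+), a pair with 3 mismatches and no spacer, before a start inside the gene's span: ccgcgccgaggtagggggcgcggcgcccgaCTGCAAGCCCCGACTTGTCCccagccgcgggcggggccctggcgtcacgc
Ccng1, chr11:40755432-40755501 (-), 1 decamer: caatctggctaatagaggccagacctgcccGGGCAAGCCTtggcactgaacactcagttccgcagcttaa
Cdkn1a, chr17:29090876-29090967 (+), a pair with 0 mismatches before the more upstream of its starts: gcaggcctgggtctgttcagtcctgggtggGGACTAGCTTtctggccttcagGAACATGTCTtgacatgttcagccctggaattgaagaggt

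Cdkn1a, which encodes the cell cycle inhibitor p21 and is not one of the 10, is shown for comparison as the classic p53 target. The marked matches begin 98 bases before the start in Trp53, 186 in Mdm2, 234 in Mdm4, 216 in Bax, 97 in Bbc3, 185 in Ccng1 and 73 in Cdkn1a. In Trp53 and Cdkn1a the last marked decamer is directly followed by a further, imperfect decamer, which is left in lower case. The windows of Phlda3 and Sesn2 held neither pattern. Nor did the Mdm4 window at its more upstream start, or the other windows of Bbc3 and Cdkn1a. A match describes the letters in the window and is not evidence of binding. Sequence outside these windows, such as the rest of each gene, was not searched. A window without a match therefore does not show that the gene lacks a p53 site, and a marked match need not be the site that p53 uses.

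Depth was similar, with 15918349 to 17052943 counts per library, of which 5045 to 6498 fell on the 10 members. Values are CPM, read counts made relative to library size, which was first adjusted by TMM, an edgeR factor that offsets differences in library composition. Mitochondrial genes took 4.13% of the counts in WT2 and 16.63% in KO2, with 8.69% and 9.8% in WT1 and KO1. The targeted gene does not check the labels: Tfrc counts were 8441 in WT1, 3603 in WT2, 5407 in KO1 and 3244 in KO2, so the groups overlapped (log2 fold change -0.37, SE 0.45, edgeR adjusted p = 0.833). Directions are therefore those of the libraries labelled knockout. Hepatocyte markers were present in all libraries. Hnf4a, a transcription factor of hepatocyte identity, had 530 and 553 CPM in wild type and 549 and 471 CPM in knockout. The summed CPM of 8 hepatocyte markers was less even, at 11700 and 42300 in wild type and 32600 and 29700 in knockout.

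The members spanned a wide range of levels. Levels were compared between genes as CPM on the library total, without TMM, per kilobase of the union of annotated exons. On this scale Bax was highest with 31.31 and 55.96 in wild type and 27.9 and 36.86 in knockout. Bbc3 (mean 14.11 over the 4 libraries) and Trp53 (13.38) came next and overlapped each other, while both lay below every Bax value. Ccng1 (7.4), Mdm2 (6.95), Mdm4 (5.36), Sesn2 (5.34), Phlda3 (4.24) and Pmaip1 (2.92) formed a run in which each gene overlapped its neighbour. Zmat3, at 0.87 to 1.66, lay below every value of Pmaip1. The authors' deposited FPKM gave the same first 4 genes but another middle order, with Sesn2 above Mdm2 at means of 5.35 and 3.61, and Mdm4 below Phlda3 at 3.26 and 3.3. The length behind the deposited FPKM was 1.65 times the exon union for Mdm4 and equal to it for Sesn2.

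**Figure D1:**
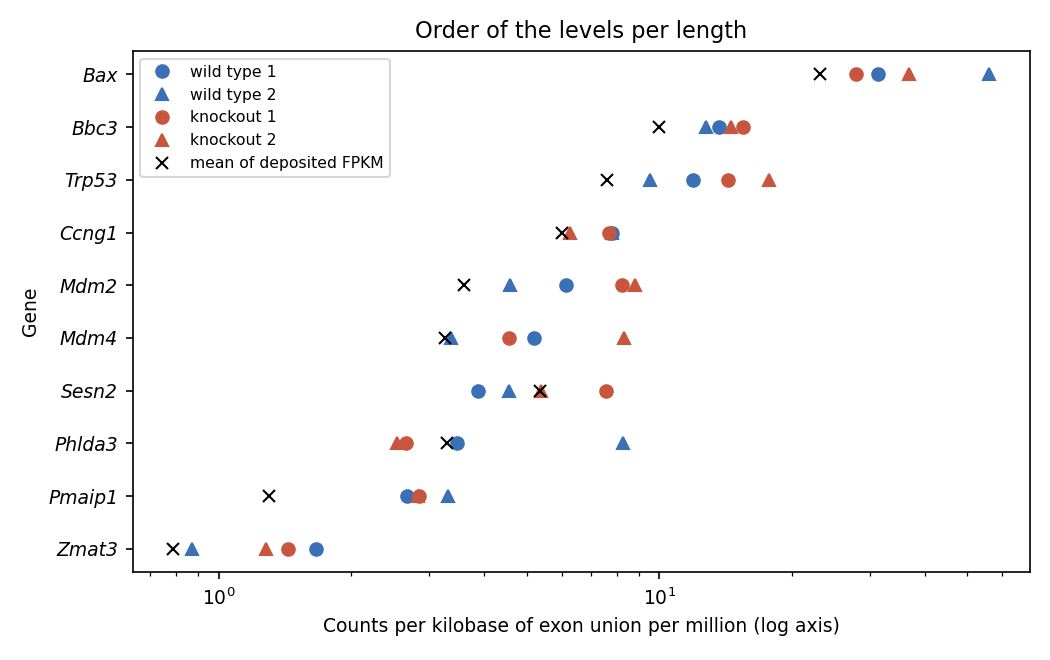
Each row is 1 gene, with its level in each library on a log axis, as CPM on the library total per kilobase of exon union, and the mean of the deposited FPKM as a cross. Bax stands highest at 27.9 to 55.96 and Zmat3 lowest at 0.87 to 1.66, and the cross lies left of every point except for Sesn2 and Phlda3.

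None of the 10 genes passed the test between the groups (smallest edgeR adjusted p = 0.6). Over all 16310 tested genes 0, or 0%, passed by edgeR's quasi-likelihood test, while 8.3% had an unadjusted p under 0.05, as did 1 of the 10 members (Mdm2). DESeq2 called 0.907% of all genes and 0 of the 10. In 4 members (Trp53, Mdm2, Bbc3 and Sesn2) KO1 and KO2 lay above WT1 and WT2, against 21.9% of all tested genes, and in 1 (Phlda3) both lay below, against 20.1%. The median log2 fold change of the 10 was 0.18, with 6 positive and 4 negative, beside 0.01 over all tested genes. In bulk tissue, fewer cells of a type and less RNA per cell cannot be told apart.

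Trp53 and Mdm2 stood higher in both knockout libraries, and they varied together more closely than any other pair of members. Trp53 (ENSMUSG00000059552, chromosome 11, 69580359 to 69591873) had 43 and 42.8 CPM in wild type and 56.8 and 74.4 CPM in knockout. The wild type mice were nearly equal, and the knockout mice differed 1.31-fold from each other. The means were 42.9 ± 0.192 and 65.6 ± 12.5 CPM (SD, n = 2 each), a log2 fold change of 0.61 (SE 0.3, 95% interval -0.09 to 1.32, edgeR adjusted p = 0.631). With KO2 left out it was 0.41. KO2, the library with the highest Trp53, Mdm2 and Mdm4, also had the highest mitochondrial share (16.63% against 4.13 to 9.8%). The part of that share in these values was not tested. The processed pseudogene Trp53-ps resembles Trp53 at 94.957% identity over 1170 bases and was counted at 5 and 4 in WT1 and WT2 and at 12 and 13 in KO1 and KO2. Against 658 to 1180 counts for Trp53, few reads were assigned to the copy.

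Mdm2 (ENSMUSG00000020184, chromosome 10, 117688875 to 117710758), the E3 ubiquitin ligase of p53, had 27.9 and 25.9 CPM in wild type and 41.1 and 46.5 CPM in knockout. The groups did not overlap, and the libraries within each lay within 1.13-fold of each other. The knockout mean was 1.63-fold higher, 43.8 ± 3.78 against 26.9 ± 1.47 CPM (SD, n = 2 each). This gave a log2 fold change of 0.7 (SE 0.3, 95% interval 0.004 to 1.4, unadjusted p = 0.0489, edgeR adjusted p = 0.6), and it lay between 0.61 and 0.76 with any 1 library left out. The difference did not survive adjustment over all genes.

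The centred log2 levels of Trp53 and Mdm2 differed by a root mean square of 0.1 over the 4 libraries, the smallest of the 45 pairs of members, and by up to 1.08 for Mdm4 and Phlda3. Within each library the ratio of Mdm2 to Trp53 counts, which does not depend on library scaling, was 0.649 and 0.605 in wild type and 0.724 and 0.625 in knockout. Mdm2 therefore stood in nearly the same proportion to Trp53 in every tumour, and the groups overlapped. Outside the members, the genes with a pattern closest to Trp53 over the 4 libraries were Snhg1, Itsn1 and Gtpbp10, with root mean square differences of 0.033, 0.035 and 0.036. These genes lay closer to Trp53 than Mdm2 did (0.1), and they were picked from 10742 genes over only 4 libraries.

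Mdm4 (ENSMUSG00000054387, chromosome 1, 132959484 to 133030561) did not follow its partner as closely. It had 68.8 and 55.3 CPM in wild type and 66.2 and 127 CPM in knockout, so KO1 lay among the wild type libraries and KO2 stood alone. The log2 fold change of 0.64 (SE 0.38, edgeR adjusted p = 0.665) was 0.09 without KO2 and 1.01 without KO1. The ratio of Mdm4 to Mdm2 counts was 2.462 and 2.138 in wild type and 1.609 and 2.741 in knockout. Its processed pseudogene Mdm4-ps, 94.12% identical over 4184 bases, had 2 to 6 counts per library.

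**Figure D2:**
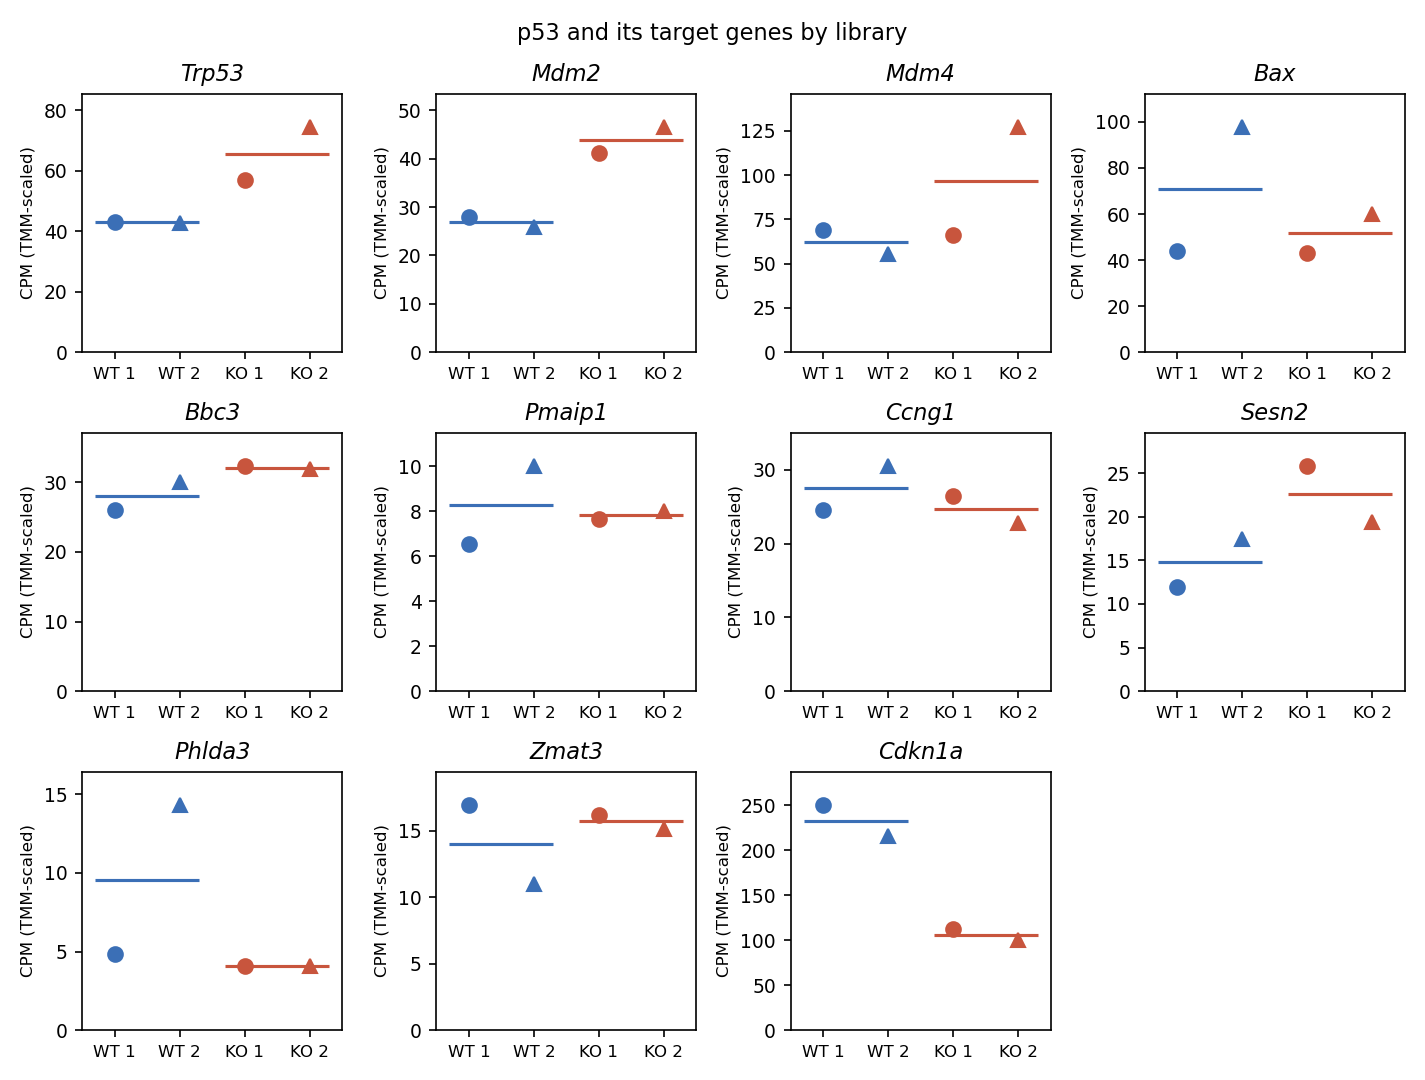
Each panel is 1 gene, with TMM-scaled CPM on an axis from 0, wild type (WT) in blue and Tfrc knockout (KO) in red, circles for replicate 1 and triangles for replicate 2, and lines at the group means. Trp53 and Mdm2 have KO1 and KO2 above WT1 and WT2, Cdkn1a has them below (112 and 100 against 250 and 216 CPM), and Bax and Phlda3 are highest in WT2.

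None of the apoptosis genes among the members passed the test. Bax (ENSMUSG00000003873, chromosome 7, 45461697 to 45466898), whose product permeabilises the outer mitochondrial membrane, had 44.1 and 97.7 CPM in wild type and 43.2 and 60.2 CPM in knockout. The wild type mice differed 2.22-fold, and KO2 lay between them. The log2 fold change of -0.46 (SE 0.43, 95% interval -1.48 to 0.57, edgeR adjusted p = 0.78) became 0.23 without WT2 and -0.96 without WT1. It moved to -0.72 without KO2 and to -0.27 without KO1.

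Bbc3 (ENSMUSG00000002083, chromosome 7, 16308393 to 16318205) encodes PUMA, a BH3-only protein that binds every anti-apoptotic BCL2 relative. It was the steadiest apoptosis gene, at 26 and 30.1 CPM in wild type and 32.3 and 31.9 CPM in knockout. The groups were separate by a narrow margin, with a log2 fold change of 0.2 (SE 0.3, 95% interval -0.52 to 0.91), and 0.06 without WT1. Pmaip1 (ENSMUSG00000024521, chromosome 18, 66458533 to 66465565) encodes NOXA, a BH3-only protein that acts mainly on MCL1. It had 6.54 and 10 CPM in wild type and 7.65 and 8.01 CPM in knockout, with both knockout values between the wild type values. Its log2 fold change was -0.08 (95% interval -1.06 to 0.9), and it was -0.39 without WT1 and 0.26 without WT2.

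The stress and growth control targets split in direction. Sesn2 (ENSMUSG00000028893, chromosome 4, 132492032 to 132510501), a leucine sensor that restrains mTORC1, had 12 and 17.5 CPM in wild type and 25.8 and 19.4 CPM in knockout. The groups did not overlap, though WT2 and KO2 were close. Its log2 fold change of 0.61 (SE 0.38, 95% interval -0.28 to 1.5, edgeR adjusted p = 0.671) shrank to 0.33 without WT1 and to 0.36 without KO1.

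Phlda3 (ENSMUSG00000041801, chromosome 1, 135766119 to 135769136), a pleckstrin homology protein that limits AKT signalling, had 4.85 and 14.3 CPM in wild type and 4.07 and 4.1 CPM in knockout. The knockout libraries were nearly equal, and WT1 lay close above them. Counts were 89 and 220 in wild type and 66 and 65 in knockout. The log2 fold change of -1.22 (SE 0.58, 95% interval -2.6 to 0.15, edgeR adjusted p = 0.631) rested on WT2: it was -0.25 without that library and -1.84 without WT1. WT2 also had the largest summed CPM of hepatocyte (42300), macrophage (1050), neutrophil (67.4), endothelial (159), red cell (2170) and B cell markers (3.64). Their part in the Bax and Phlda3 values was not tested.

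Ccng1 (ENSMUSG00000020326, chromosome 11, 40748552 to 40755311) encodes cyclin G1, a protein that recruits phosphatase 2A to MDM2. It had 24.6 and 30.5 CPM in wild type and 26.5 and 22.8 CPM in knockout, and the groups overlapped. Its log2 fold change was -0.16 (95% interval -0.92 to 0.6) and 0.01 without WT2. It was -0.34 without WT1, -0.3 without KO1 and -0.05 without KO2. Zmat3 (ENSMUSG00000027663, chromosome 3, 32334792 to 32366014) encodes an RNA-binding zinc finger protein. It had 16.9 and 11 CPM in wild type and 16.2 and 15.1 CPM in knockout, both between the wild type values. Its log2 fold change was 0.17 (95% interval -0.73 to 1.06), -0.11 without WT2, 0.48 without WT1 and 0.09 without KO1.

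**Figure D3:**
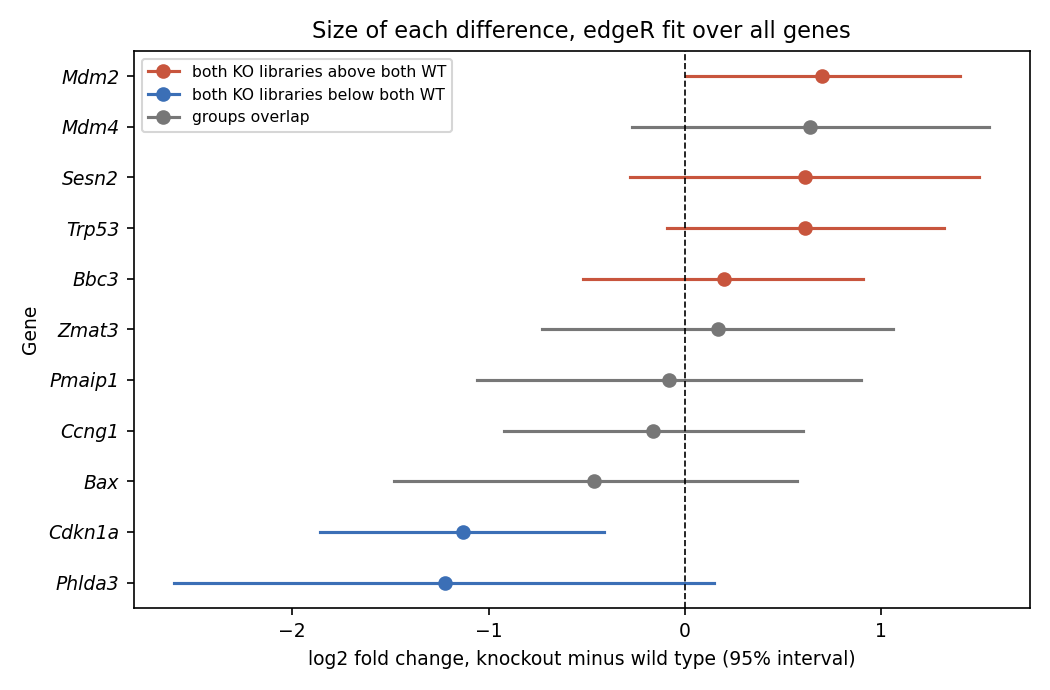
Points are log2 fold changes of knockout minus wild type from the edgeR fit over all genes, and lines are 95% intervals, coloured by whether the libraries of the groups overlap. The intervals of all members but Mdm2 (0.004 to 1.4) include 0, and Cdkn1a lies at -1.13 with an interval from -1.86 to -0.41.

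Cdkn1a, the target most often used to read p53 activity, lay on the opposite side to Mdm2, and neither passed the test over all genes. Cdkn1a (ENSMUSG00000023067, chromosome 17, 29090976 to 29100727) had 250 and 216 CPM in wild type and 112 and 100 CPM in knockout. The groups were clearly apart, with a log2 fold change of -1.13 (SE 0.31, 95% interval -1.86 to -0.41, unadjusted p = 0.00774, edgeR adjusted p = 0.545, DESeq2 adjusted p = 0.0682), so it did not pass either. Leaving out any 1 library gave -1.25 to -1.05. Within a library, there were 8.951 (WT1) and 8.339 (WT2) counts of Cdkn1a per count of Mdm2, and 2.726 (KO1) and 2.156 (KO2). The ratio means were 8.645 ± 0.433 and 2.441 ± 0.403 (SD, n = 2 each), a gap wider than the spread between mice. Against Trp53 the ratio was 5.813 and 5.044 in wild type and 1.974 and 1.347 in knockout. The gene AC167363.2 on the opposite strand shares exon sequence with Cdkn1a and had 12 to 42 counts, against 1589 to 4592 for Cdkn1a. Summed macrophage markers were lower in the same libraries as Cdkn1a (704 and 1050 CPM in wild type, 393 and 261 in knockout). Both knockout libraries lay below both wild type in 20.1% of all tested genes. The part of the macrophage markers in the result was not tested. An exact two-sided permutation test of 2 against 2 cannot give a p below 0.333, and this pair of genes was chosen after its values were seen, so the ratios were not tested.

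**Figure D4:**
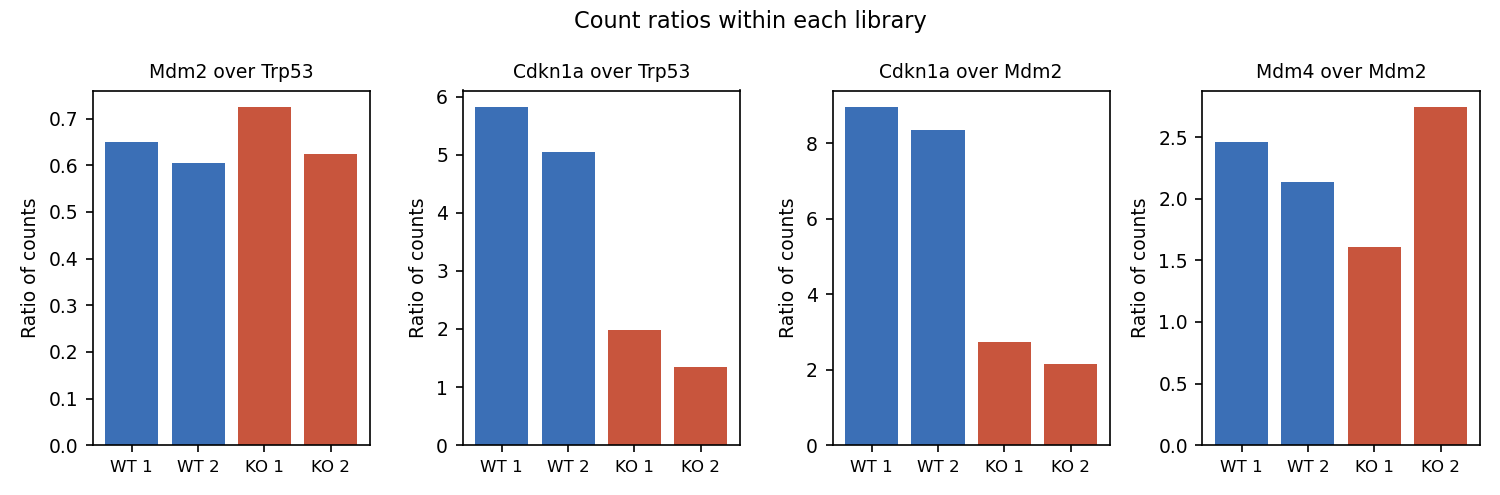
Bars are ratios of raw counts of 2 genes within each library, from 0, with wild type (WT) in blue and knockout (KO) in red. Mdm2 over Trp53 stays between 0.605 and 0.724 in all 4 libraries, while Cdkn1a over Mdm2 is 8.339 and 8.951 in wild type and 2.156 and 2.726 in knockout.

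Other p53 targets did not share a direction. Of 32 listed genes 30 were tested, with 16 positive and 14 negative log2 fold changes and a median of 0.03. The knockout libraries were both above wild type in 5 of the 30 and both below in 6, beside 21.9% and 20.1% of all tested genes. None passed over all genes by edgeR or DESeq2, and at an unadjusted p under 0.05 (8.3% of all tested genes) Plk3 was higher and Cdkn1a, which is on this list too, was lower. Plk3, a stress-activated polo kinase, had 26.4 and 53.9 CPM in wild type and 70.3 and 87.3 CPM in knockout (log2 fold change 0.97, and 0.51 without WT1 or 1.58 without WT2). Gtse1, a protein that moves p53 out of the nucleus, had 29 and 26.7 against 19.3 and 15.6 CPM. The antiproliferative gene Btg2 had 80.8 and 88.6 against 43.1 and 69 CPM (log2 fold change -0.6, and -0.33 without KO1 or -0.97 without KO2). The death receptor gene Fas had 13.9 and 23 against 20.4 and 17.4 CPM. Zfp365 and the non-coding gene Trp53cor1, with 14 or fewer counts per library, were not tested.

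Of 22 regulators of p53, 14 had positive and 8 negative log2 fold changes (median 0.05). None passed by edgeR or DESeq2, and only Sirt1 of the 22 had an unadjusted p under 0.05, beside 8.3% of all tested genes. Sirt1, a deacetylase of p53, had 8.99 and 5.26 CPM in wild type and 13.4 and 16.7 CPM in knockout. The fitted difference was 1.08 on the log2 scale (SE 0.42, edgeR adjusted p = 0.591), and 0.74 without WT2 or 1.48 without WT1. The deubiquitinase gene Usp7, which acts on both MDM2 and p53, had 67.4 and 52.6 against 83.3 and 94.4 CPM. Usp10, another deubiquitinase of p53, had 47.6 and 38.3 against 69.1 and 52.8 CPM (log2 fold change 0.5, and 0.27 without KO1). The acetyltransferase gene Crebbp had 28.8 and 17.1 against 31.3 and 47.3 CPM (log2 fold change 0.78, and 0.45 without WT2 or without KO2). The relatives Trp63 and Trp73 had 0 counts in every library, which allows up to 0.176 to 0.188 CPM by counting error alone.

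In the partners of BAX, PUMA and NOXA, 7 of 17 genes had positive and 10 negative log2 fold changes (median -0.17). None passed by edgeR, 1 was higher (Hrk) and 2 lower (Bak1 and Bok) at an unadjusted p under 0.05, beside 8.3% of all tested genes. DESeq2 called only Hrk of the 17, beside 0.907% of all tested genes. Bak1, the second pore-forming effector, had 57.3 and 56.9 CPM in wild type and 29.3 and 21.6 CPM in knockout. The fitted difference was -1.16 on the log2 scale (SE 0.31, edgeR adjusted p = 0.545). Bok, a more distant relative of BAX, had 118 and 97.8 against 59.4 and 61.1 CPM (log2 fold change -0.84, SE 0.29). In both genes KO1 and KO2 lay below WT1 and WT2, while in Bax the groups overlapped. Of the 17 genes, 6 had both knockout libraries below and 3 had both above, beside 20.1% and 21.9% of all tested genes. The BH3-only gene Hrk was counted 1 time in WT1, 6 in WT2, 73 in KO1 and 34 in KO2, and DESeq2 called it (adjusted p = 0.0388) while edgeR did not (adjusted p = 0.545). Its low wild type counts leave the size of that difference poorly determined. Among survival genes, Bcl2l2 had 9.37 and 14.4 against 20.9 and 19.1 CPM (log2 fold change 0.75, and 0.44 without WT1). Bcl2l1, which encodes BCL-XL, had 28.6 and 38.3 against 24 and 30.6 CPM, and Mcl1 had 257 and 144 against 228 and 188 CPM, with groups that overlapped in both.

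Cell cycle genes that are repressed through p21 and the DREAM complex had a median difference near 0. Of 12 genes 4 had positive and 8 negative log2 fold changes, with a median of -0.05. None passed by edgeR or DESeq2, and 0 had an unadjusted p under 0.05, beside 8.3% of all tested genes. Aurka had 66.8 and 73.3 CPM in wild type and 57.9 and 54.6 CPM in knockout, and Plk1 had 67.7 and 47.8 against 67.2 and 85.7 CPM. Cdc20 had 183 and 136 against 130 and 133 CPM, and Birc5 had 72.6 and 83.8 against 93.5 and 87.4 CPM. With WT1 left out the median became 0.23, with WT2 left out -0.27 and with KO1 left out -0.09.

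ATF4, the main factor of the amino acid stress response, also activates Sesn2 and Pmaip1. Of 11 genes of the ATF4 list 3 had positive and 8 negative log2 fold changes (median -0.13). Without 1 library the median was -0.35 (WT1 left out), 0.22 (WT2), -0.48 (KO1) and -0.04 (KO2). None passed by edgeR or DESeq2, and 0 had an unadjusted p under 0.05, beside 8.3% of all tested genes. Asns, the asparagine synthetase gene, had 147 and 94.8 CPM in wild type and 92.2 and 60.2 CPM in knockout, and Phgdh had 215 and 256 against 180 and 134 CPM. Ddit4, an mTORC1 inhibitor, had 130 and 77 against 169 and 130 CPM, and Atf5 had 274 and 410 against 218 and 275 CPM. The 3 positive genes were Ddit4, Fgf21 and Slc7a11, the latter pair with groups that overlapped and named here only to complete that count.

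**Figure D5:**
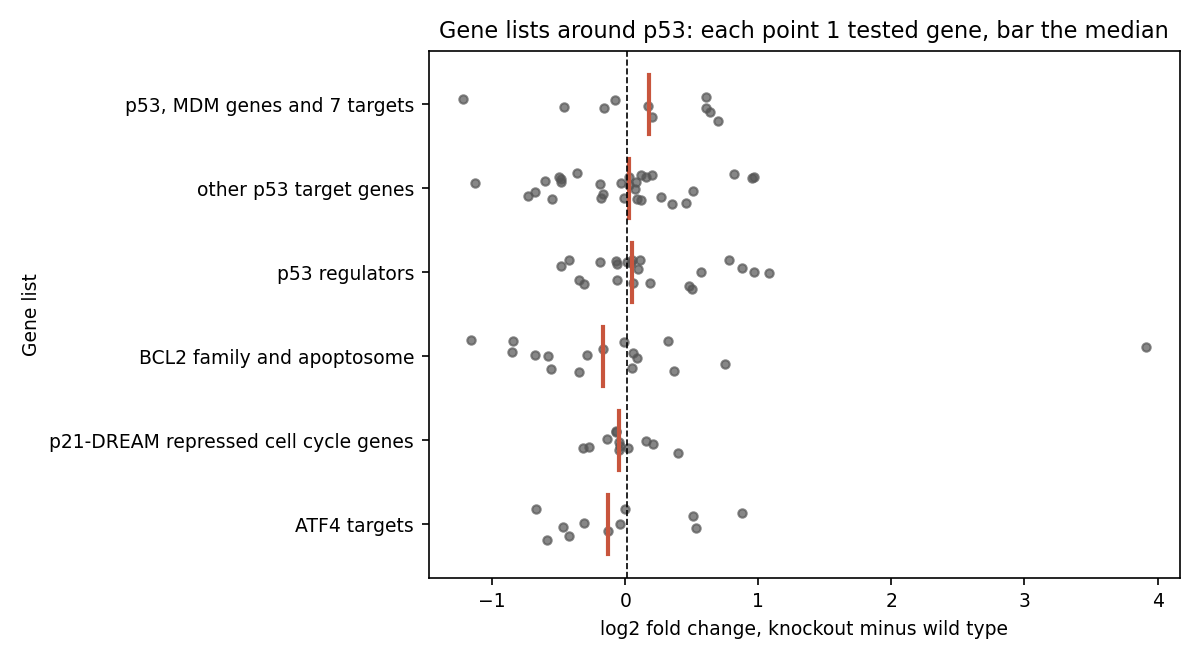
Each point is the log2 fold change of 1 tested gene, knockout minus wild type, red bars are list medians and the dashed line is the median of all tested genes (0.01). The medians lie between -0.17 and 0.18, and the point far to the right is Hrk, whose fitted value rests on 1 and 6 wild type counts.

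Summed levels of macrophage, neutrophil, endothelial, stromal and red cell markers were lower in KO1 and KO2 than in WT1 and WT2. The summed CPM of 10 macrophage markers was 704 and 1050 in wild type and 393 and 261 in knockout, and all 10 had negative log2 fold changes. Of all 16310 tested genes, 8090 had negative log2 fold changes. In 6 of the 10 markers (Adgre1, Csf1r, Cd68, C1qa, C1qb and C1qc) KO1 and KO2 lay below WT1 and WT2, beside 20.1% of all tested genes. The Kupffer cell markers Marco, Vsig4, Clec4f and Timd4 overlapped, with WT2 highest in each, and WT1 lay below KO1 and KO2 for Marco, Vsig4 and Clec4f. Of these, Clec4f and Timd4 were at 0 in at least 1 library. Sums of 6 endothelial markers were 153 and 159 against 109 and 80.7, of 6 stromal markers 1390 and 1150 against 614 and 1080, and of 5 red cell markers 956 and 2170 against 212 and 150. The 6 neutrophil markers summed to 25.2 and 67.4 against 14 and 14.8, with Retnlg at 0 in at least 1 library. Sums of 8 hepatocyte markers were 11700 and 42300 against 32600 and 29700, and of 4 bile duct markers 38.9 and 50.8 against 39.5 and 61.4, with groups that overlapped. T cell markers (6 genes) summed to 10.1 and 5.72 against 12 and 10.6, and B cell markers (4 genes) to 2.56 and 3.64 against 2.22 and 3.09. WT2, which had the highest Bax and Phlda3, also had the highest hepatocyte, macrophage, neutrophil, endothelial, red cell and B cell sums. Cdkn1a, Bak1 and Bok were lower in the same libraries as the macrophage, endothelial and red cell sums, an order shown by 20.1% of all tested genes. The part of cell composition in these values was not tested.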

How the data were processed

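The authors deposited 1 table with raw counts and FPKM per Ensembl gene for 4 libraries. The build was mm10 and the tools listed were edgeR, StringTie, HISAT2 and SAMtools 1.3.1, per the submitters' processing notes, which assign them no role. The counter and strand setting are not given in the sources used here. Symbols came from GENCODE M21, which matched 55227 identifiers. Within 1%, the length behind the deposited FPKM was the sum of distinct annotated exons, overlaps counted repeatedly, for 97.8% of 16094 genes, so levels were compared between genes per kilobase of exon union.

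After filterByExpr and TMM scaling, counts entered edgeR's quasi-likelihood test (edgeR 4.0.16, R 4.3.3), two-sided, Benjamini-Hochberg adjusted over 16310 genes at 0.05. Centred levels used a prior count of 2. Alternatives were DESeq2 1.42.0, limma-voom (limma 3.58.1), other scalings and filters, a replicate block and leaving out each library, when a single remaining sample borrows its spread from the other genotype. Similar transcripts were sought with blastn 2.17.0. With 2 libraries per group the spread is largely pooled over genes. On simulated data for this comparison, over 16310 genes, the test found 0 of 50 true 2-fold changes, 17 of 50 at 4-fold, 42 of 50 at 8-fold and 50 of 50 at 16-fold, and it called 11 unchanged genes.

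The members and lists were chosen with earlier results of these data known. Named were the 10 members, Tfrc, Cdkn1a, the 4 genes with the smallest p of each pathway list, Bcl2l1, Mcl1 and the 3 genes closest to Trp53. Fas, Hnf4a, Trp63, Trp73, Zfp365, Trp53cor1 and the pseudogenes were chosen otherwise. Floors cover counting error only, since no molecular identifiers are named for these libraries.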

Additional observations from a re-analysis of the deposited data

How the results depend on the processing

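No member passed the threshold under any of the 11 alternatives. The count over all genes did move. DESeq2 called 63 genes higher and 85 lower, and library totals and limma-voom each called 1 lower, against 0 and 0. With the replicate block 2 were higher and 2 lower. Leaving out 1 library gave 0 to 209 higher and 0 to 200 lower, most of them without WT1. The labels share only a number between groups: replicate 1 minus 2 in wild type and in knockout correlated at 0.12 across genes, and no member passed with the block. Leaving out WT2 turned the sign of Bax, Pmaip1, Ccng1, Zmat3 and Mcl1, whose values without 1 library ran from -0.96 to 0.23, -0.39 to 0.26, -0.34 to 0.01, -0.11 to 0.48 and -0.31 to 0.5. Mcl1 was also at -0.01 with library totals and -0.12 without KO1. Tfrc ran from -0.79 to 0.16, the latter without WT1. The cause was not tested. Trp53, Mdm2, Mdm4, Bbc3, Sesn2, Phlda3 and Cdkn1a kept their direction under all alternatives run. The members' median lay between 0.12 and 0.28. Without 1 library the median of other targets ran from -0.18 (KO2 left out; -0.16 for WT1) to 0.14 (WT2), of regulators from -0.02 (KO1) to 0.17 (WT1), and that of the BCL2 list was -0.25 with library totals, -0.27 with the 5 CPM filter, -0.05 with limma-voom and -0.04 with the replicate block. Hrk passed under DESeq2. Leaving out 1 library also moved, by over 1.5 times, Asns (-0.35 to -1.04), Ddit4 (0.21 to 0.92), Atf5 (-0.15 to -0.77), Plk1 (0.18 to 0.64), Cdc20 (-0.08 to -0.47), Birc5 (0.07 to 0.32), Bcl2l1 (-0.07 to -0.53) and Phgdh (-0.39 without KO2). Among the tested members and pathway genes given with values per library, low counts limit Hrk, Phlda3, Pmaip1 and Sirt1 (5.26 CPM in WT2) most. Slc7a11, Timd4 and Retnlg, named without such values, had 3.05 CPM or less in every library.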

Other observations

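The length used for the deposited FPKM changes the order of genes, not the comparison of libraries for 1 gene. Over 16094 genes it was a median of 1.31 times the exon union, and it equalled the union within 1% for 20.9%. Among the members the factor ran from 1 (Sesn2) to 2.24 (Pmaip1), and it was 1.86 for Cdkn1a. A gene with many annotated isoforms is therefore listed lower in FPKM than its reads per exonic base.

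Few genes overlap the members. Gm45808 shares exons with Bax on the same strand and had 1 to 3 counts per library, against 700 to 1504 for Bax. Gm29257 lies inside Mdm4 on the opposite strand with 71 to 107 counts and no shared exon.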
